A study of Mus musculus with 3 samples.

Results

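Of the 1727 genomic sites that the authors listed as differing in PARP-1 signal between cocaine and saline, 251 lay in a promoter or gene body with their midpoint at most 15 kb from the transcription start of the assigned gene. These sites belonged to 244 genes. They were chosen by the authors' annotation columns alone: a feature of proximal promoter, promoter or gene body, a gene name, and a distance of 15000 bp or less in either direction. Of the other listed sites, 519 lay in genes beyond that distance and 957 outside genes and promoters. The chromatin came from the nucleus accumbens of C57BL/6 mice that received cocaine at 20 mg/kg (intraperitoneal, once daily for 7 days) or saline on the same schedule, and tissue was taken 30 min after the final injection. Punches of 10 mice were pooled for each ChIP replicate, so a replicate is a pool and not an animal, and age and sex of the mice are not stated. The labels state 3 replicates per group, but the table of sites carries 2 cocaine values (n = 2) and 3 saline values (n = 3) per site, and the replicate numbers below are only their order in that table. A DNA input library of the series has no values in it and was not analysed here.

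PARP-1 is an abundant nuclear enzyme that uses NAD+ to build chains of ADP-ribose on itself, on histones and on other chromatin proteins. It binds nucleosomes and DNA breaks, and at promoters it is known as a partner of transcription factors that can displace linker histone and loosen chromatin. In ChIP-seq, cross-linked chromatin fragments bound by an antibody, here a rabbit polyclonal against PARP-1, are sequenced, and reads piling up over a window measure occupancy. In pooled bulk tissue, more cells with PARP-1 at a site and more PARP-1 per cell cannot be told apart.

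The window of 13 sites held the transcription start itself, and the promoters of these genes are the sequences closest to the measured signal. The sequences are given 5′ to 3′ on the gene's strand and are the 250 bases before the RefSeq start (GRCm38.p6) of 5 of the nearest genes with a single RefSeq promoter entry. They are Olfr1261 (chr2:89993145-89993394, plus strand), Cbr4 (chr8:61487484-61487733, plus), Es1 (RefSeq symbol Ces1c, chr8:93131284-93131533, minus), Sdpr (Cavin2, chr1:51288876-51289125, plus) and Oas3 (chr5:120777660-120777909, minus). They were picked because they span an olfactory receptor, a mitochondrial enzyme, a carboxylesterase, a caveolar protein and an interferon-induced gene. Capitals mark CG dinucleotides and matches, on either strand, to the TATA box TATAAA, the motif of nuclear factor Y CCAAT, the GC box GGGCGG and the core of the interferon response element (ISRE core), which was searched as a pair of GAAA runs with any 2 bases between them.
Olfr1261: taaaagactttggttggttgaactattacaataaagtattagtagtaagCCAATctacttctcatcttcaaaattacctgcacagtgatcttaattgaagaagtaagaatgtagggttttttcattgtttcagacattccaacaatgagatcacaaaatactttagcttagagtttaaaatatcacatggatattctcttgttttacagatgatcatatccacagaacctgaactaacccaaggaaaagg
Cbr4: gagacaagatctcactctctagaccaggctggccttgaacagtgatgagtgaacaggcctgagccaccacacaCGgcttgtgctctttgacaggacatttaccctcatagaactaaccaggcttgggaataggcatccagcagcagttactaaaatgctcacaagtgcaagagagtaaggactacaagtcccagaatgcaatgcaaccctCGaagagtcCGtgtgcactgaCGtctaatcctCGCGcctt
Es1: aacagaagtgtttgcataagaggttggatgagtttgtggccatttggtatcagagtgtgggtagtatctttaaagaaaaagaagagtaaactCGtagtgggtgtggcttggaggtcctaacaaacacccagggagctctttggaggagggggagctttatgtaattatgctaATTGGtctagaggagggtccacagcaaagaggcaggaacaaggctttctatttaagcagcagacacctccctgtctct
Sdpr: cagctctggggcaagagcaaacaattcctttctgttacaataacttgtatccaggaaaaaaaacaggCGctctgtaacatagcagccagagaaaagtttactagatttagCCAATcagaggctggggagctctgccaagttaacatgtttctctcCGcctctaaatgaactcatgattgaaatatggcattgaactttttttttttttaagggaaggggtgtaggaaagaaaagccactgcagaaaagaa
Oas3: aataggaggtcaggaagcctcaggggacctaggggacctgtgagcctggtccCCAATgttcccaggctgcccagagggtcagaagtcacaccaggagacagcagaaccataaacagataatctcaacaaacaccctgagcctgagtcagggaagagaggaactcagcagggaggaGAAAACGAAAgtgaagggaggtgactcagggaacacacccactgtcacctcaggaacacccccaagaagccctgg

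These sequences hold few CG dinucleotides: 0 before Olfr1261, 6 before Cbr4, 1 before Es1, 2 before Sdpr and 1 before Oas3. Over all 17491 protein-coding genes of the RefSeq promoter table, taking the entry with the most CG per gene, the median was 11 CG in 250 bases (quartiles 3 and 20). Among the 13 genes whose site held the start, 11 had an entry, their median was 4 and 2 of them lay above 11. The 61 genes whose site lay 1 to 3 kb from the start had a median of 14 over the 50 with an entry. The 24 genes with a site within 1 kb of a start include the 13 above. Over the 17 of them with an entry the median was also 4, and 2 lay above 11. These values describe 11, 50 and 17 genes, without a test. Csn1s2b and Cacna2d4 had no entry. The printed Oas3 sequence holds a match to the ISRE core, 75 bases before the start. This pattern occurred in 2.98% of all 32851 promoter entries of the same length. CCAAT occurred in 33.8% of entries and is present, on either strand, in the printed sequences of Olfr1261, Es1, Sdpr and Oas3. TATAAA (12.4% of entries) and GGGCGG (32.7%) have no match in the 5 printed sequences. Over all 11 genes with an entry and a site over the start, GGGCGG was found in 4, TATAAA in 1, CCAAT in 7 and the ISRE core in 1, counting any entry of a gene. These are 36.4%, 9.09%, 63.6% and 9.09% of the 11. Counted per gene in the same way, the shares over the 17491 protein-coding genes were 45.8%, 13.7%, 39.5% and 3.48%. The sites are given in mm9 and these promoters in GRCm38.p6, so the overlap of a ChIP window with the printed bases was not determined here.

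Listed sites were spread over the 15 kb and did not crowd at the start. By the authors' features, 8 were proximal promoter (midpoint within 250 bp), 16 promoter within 1 kb, 61 promoter within 3 kb and 166 gene body. The density was 17.0 sites per kb from 3 to 2 kb upstream (exact Poisson 95% interval 9.90 to 27.2), 11 in the next kb, 13 in the kb before the start and 11 (5.49 to 19.7) in the kb after it. Further downstream it was 18 and 15 per kb up to 3 kb, 17.0 from 3 to 6 kb (12.7 to 22.4), 15.3 to 9 kb, 12.3 to 12 kb and 10.7 to 15 kb (7.30 to 15.1). The intervals of neighbouring bins overlap, and they cover the counting of sites only. Of the 244 genes, 82 are shorter than 15 kb, so fewer genes reach the far bins. Upstream, the authors' promoter classes reached only to 3 kb, and 41 sites were upstream and 210 downstream of the start. The genes had a median length of 22.5 kb, against 146 kb in the genes with listed sites beyond 15 kb. The distance limit builds in part of this difference, since a gene shorter than 15 kb cannot hold a site further in. All 19 autosomes carried at least one of the 251 sites, with 34 on chromosome 11. Neither sex chromosome carried any, although 7 listed sites on X and 31 on Y lay outside genes.

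**Figure D1:**
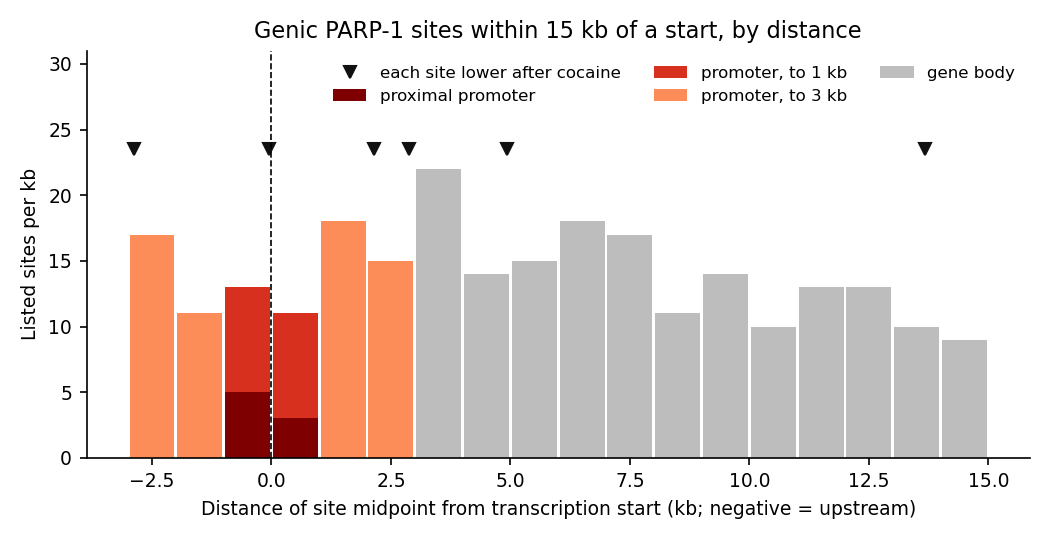
Number of listed sites per kb (vertical axis) against the distance of the site midpoint from the transcription start in kb (horizontal axis), stacked by the authors' feature class. Triangles mark the 6 sites lower after cocaine. The bins within 1 kb of the start hold 13 and 11 sites, within the range of the 1-kb bins on either side out to 3 kb (11 to 18).

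After cocaine PARP-1 signal stood above saline at 245 of the 251 sites and below it at 6. Higher sites thus made up 97.6% (exact 95% Clopper-Pearson interval 94.9 to 99.1%, covering the counting of sites only), against 92.9% of all listed sites, 96.9% of the genic sites beyond 15 kb and 89.6% of the sites outside genes. These shares include sites with high counts. With a mean normalized read count under 100, 236 sites were higher and 6 lower here. The same counts were 488 and 16 in genes beyond 15 kb, 843 and 69 outside genes, and 1567 and 91 over all listed sites. Setting aside 9 sites with a mean normalized read count of 100 or more, described at the end, the group mean at the higher sites was typically 15.6 normalized reads with cocaine and 4.16 with saline (medians over 236 sites). Cocaine replicates 1 and 2 had medians of 14.79 and 15.91 at these 236 sites, and the 3 saline replicates 4.25, 4.56 and 4.37. In recovered whole reads these are 18 and 14 against 4, 5 and 4 reads per replicate. The counts are low and bounded from below: no cocaine replicate held fewer than 16 (replicate 1) or 12 (replicate 2) reads, and the highest cocaine mean was 30.6, at Wdr63.

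Replicates of the groups did not overlap at 249 of the 251 sites, against 99.0% of all listed sites (92.2% in the higher and 6.72% in the lower direction). limma on log2(normalized count + 1), with Benjamini-Hochberg adjustment over the 1727 sites, gave an adjusted p under 0.05 at 241 of the 251 sites, against 95.5% of all listed sites. Of these, 235 were higher (90.2% of all listed sites passed as higher) and 6 lower (5.27%). The exact conditional test, run on recovered reads, put 202 sites at p under 1e-04, or 80.5%, against 78.5% of all listed sites. All these shares are near those of the whole list. The sites were listed by the authors because the same libraries differed there, so passing restates the listing and is no independent support. The calls also rest on both cocaine replicates. Without cocaine replicate 1 or 2, a single cocaine value stands for its group, so no counts are given for those fits. In both, limma called far fewer sites, among the 251 and over the whole list alike. Without saline replicates 1, 2 and 3 the exact test put 93, 66 and 105 of the 251 sites at p under 1e-04. The same counts over all listed sites were not made. Below, a site "passed" if limma with all 5 replicates gave an adjusted p under 0.05.

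Among these listed sites the size of the change hardly varied with position. The sites were listed for a difference and their counts are low and bounded from below, which restricts the changes wherever a site lies. On limma's log2 scale the higher sites had a median change of 1.74 (quartiles 1.62 and 1.89), against 1.69 for all listed higher sites and 1.69 for genic sites beyond 15 kb. By class the medians were 1.77 in proximal promoters, 1.8 in promoters within 1 kb, 1.76 within 3 kb and 1.72 in gene bodies. Upstream sites had a median of 1.79 and downstream sites 1.72. The 6 lower sites had a median of -1.72, against -1.75 for all listed lower sites. No test was made between classes.

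**Figure D2:**
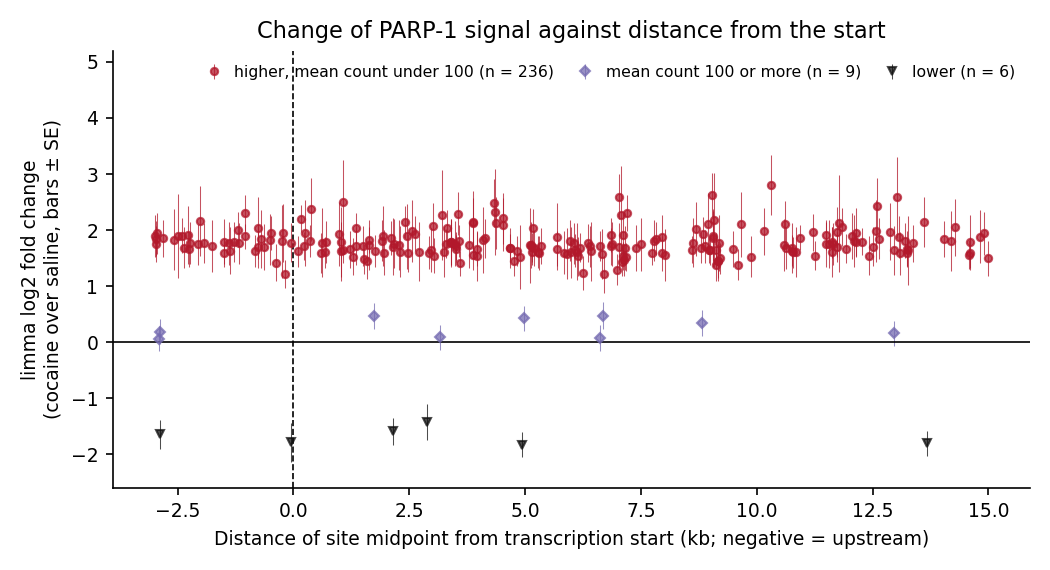
limma's log2 fold change of each site (cocaine over saline, vertical axis, bars ± SE) against the distance of its midpoint from the transcription start in kb. The 236 higher sites with a mean count under 100 sit between 1.21 and 2.80 at all distances, the 9 sites with higher counts between 0.06 and 0.47, and the 6 lower sites below 0.

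The nearest site of all was one of the 6 that fell. The window over the start of Csn1s2b, a milk casein gene (chr5:88236601-88237600 in mm9, midpoint 45.5 bp before the start), held 2.46 and 5.68 normalized reads after cocaine and 15.93, 13.68 and 17.47 after saline. All saline replicates were above both cocaine replicates, and the change was -1.79 ± 0.35 (log2, SE; limma adjusted p = 0.00617). The 12 other sites that held a start were higher after cocaine, with non-overlapping replicates. Olfr1261, an olfactory receptor gene (chr2:89833001-89834000, midpoint 50.5 bp before the start), had 13.14 and 26.13 after cocaine against 4.25, 4.56 and 5.46 after saline. The cocaine replicates differed here by more than the saline replicates did, and the change was 1.77 ± 0.35 (limma adjusted p = 0.00617). Olfr70, another olfactory receptor gene, had 18.07 and 15.91 against 5.31, 2.74 and 3.28 in the window over its start.

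Cbr4 encodes a reductase of mitochondrial fatty acid synthesis, and its site (chr8:63966201-63967200, midpoint 170.5 bp past the start) had the smallest SE of the 13 sites over a start. It held 13.97 and 14.77 normalized reads after cocaine and 2.12, 2.74 and 2.18 after saline, a change of 2.20 ± 0.24 (limma adjusted p = 0.00537). Cyp2j6, a cytochrome P450, had the largest change of the sites over a start, 2.37 ± 0.56 (limma adjusted p = 0.00918), from 17.25 and 22.73 against 4.25, 0.91 and 5.46. One of its saline replicates held a single read. The carboxylesterase gene Es1 had 13.14 and 17.04 against 4.25, 5.47 and 1.09, with the last saline replicate again far below the others.

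Lcp1, Sdpr, Fgg and Oas3 also had a site over the start. Oas3, an interferon-induced antiviral synthetase (chr5:121226501-121228100, midpoint 366.5 bp past the start), had 21.36 and 23.86 after cocaine against 5.31, 4.56 and 7.64 after saline, a change of 1.81 ± 0.29 (limma adjusted p = 0.00537). Lcp1, the actin bundler of leukocytes, had 23.82 and 18.18 against 7.43, 9.12 and 8.73. Among the sites over a start that were higher after cocaine, it had the highest saline level and the smallest change, 1.22 ± 0.25 (limma adjusted p = 0.00693). Sdpr, which encodes a coat protein of caveolae, had 13.14 and 15.91 against 4.25, 3.65 and 3.28. Fgg, the fibrinogen gamma chain, had 17.25 and 15.91 against 8.5, 4.56 and 4.37, so that saline replicate 1 was well above the other saline values. These windows measure PARP-1 on chromatin and not transcription, and no expression values were analysed here.

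Receptor and channel genes completed the sites over a start. Lpar5, a receptor for lysophosphatidic acid, had 14.79 and 15.91 against 7.43, 0.91 and 5.46, and its adjusted p of 0.0364 (limma) was the highest of the 13. With a pseudocount of 0.5 in place of 1 it no longer passed. Cacna2d4, an auxiliary subunit of voltage-gated calcium channels, had the same cocaine values, 14.79 and 15.91, against 4.25, 0.91 and 6.55. 4931406C07Rik had 14.79 and 15.91 against 3.19, 4.56 and 5.46. Equal values recur because 14.79 is 18 reads in cocaine replicate 1 and 15.91 is 14 reads in replicate 2, the medians of the higher sites.

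**Figure D3:**
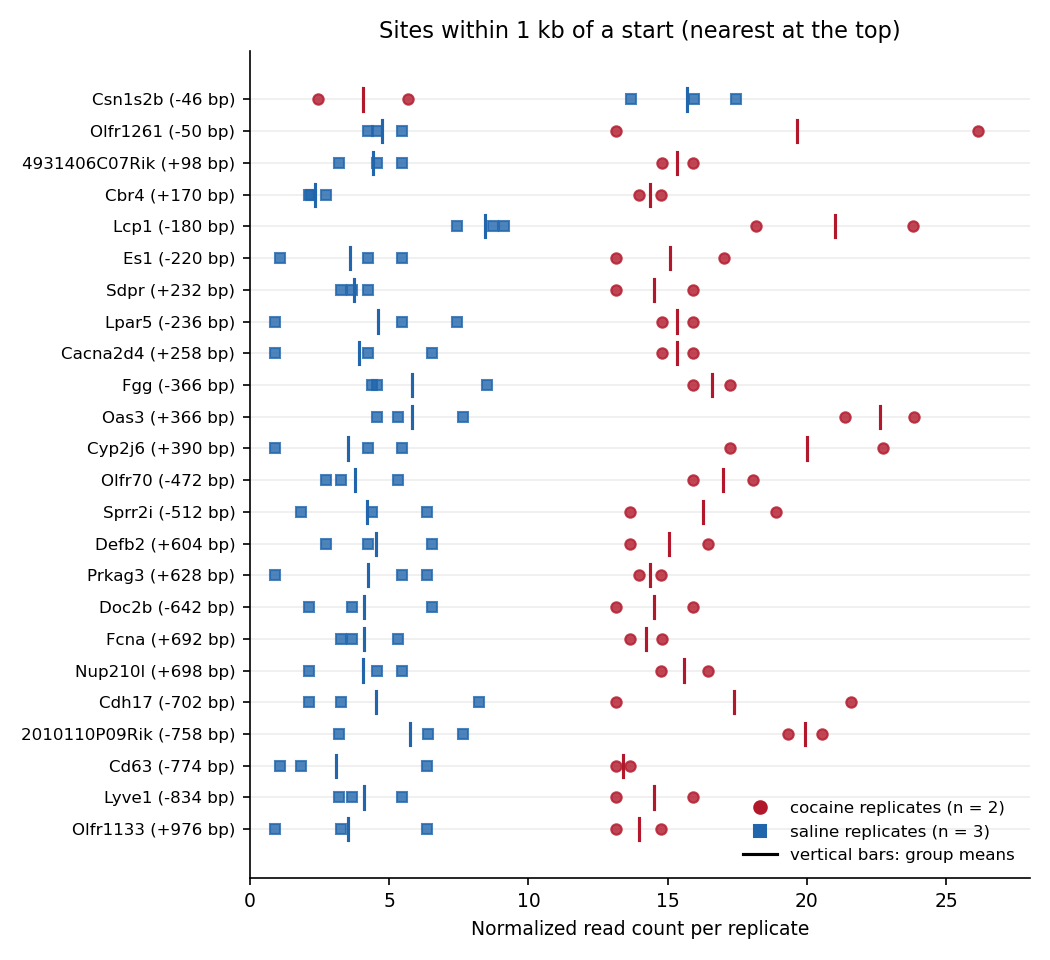
Normalized read count in each replicate (horizontal axis) at the 24 sites within 1 kb of a start, ordered by distance with the nearest at the top. Circles are the 2 cocaine and squares the 3 saline replicates, and vertical bars the group means. Csn1s2b is the only site with cocaine below saline, and at the other 23 sites all cocaine values are at 13.14 or above and all saline values at 9.12 or below.

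Between these windows and 1 kb from the start lay 11 more sites, each of which passed as higher. Doc2b, a calcium sensor for vesicle fusion, had 13.14 and 15.91 against 2.12, 3.65 and 6.55 with the midpoint 642.5 bp before its start. Cd63, a tetraspanin of late endosomes and exosomes, had 13.14 and 13.64 against 6.37, 1.82 and 1.09, a wide saline spread. Cdh17, a cadherin, had 13.14 and 21.59 against 2.12, 8.21 and 3.28. The others were Sprr2i (cornified envelope), Defb2 (a beta-defensin), Prkag3 (a regulatory subunit of AMP-activated kinase), Fcna (a complement lectin), Nup210l, 2010110P09Rik (RefSeq symbol Chp2), Lyve1 (the hyaluronan receptor of lymphatic endothelium) and the olfactory receptor gene Olfr1133. The changes at these 11 sites were 1.59 to 2.03.

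The lower sites were few and scattered. Besides Csn1s2b, 3 lay 1 to 3 kb from a start. The site upstream of Ccdc152 had 4.93 and 4.55 normalized reads after cocaine and 15.93, 14.59 and 20.74 after saline, a change of -1.64 ± 0.26. Vmn2r98, a vomeronasal receptor gene, had 4.93 and 5.68 against 19.11, 16.41 and 18.56 (-1.59 ± 0.23). Chi3l3 (RefSeq symbol Chil3), a chitinase-like protein of macrophages, had 10.68 and 5.68 against 25.49, 21.88 and 20.74, and the smallest change of the 6, -1.42 ± 0.32. The other two lay in gene bodies. Glra3, a glycine receptor subunit, had 3.29 and 3.41 against 14.87, 13.68 and 14.19 (-1.81 ± 0.22). Lrrc40, a leucine-rich repeat protein, had 3.29 and 3.41 against 13.80, 15.50 and 14.19 (-1.83 ± 0.23), the largest fall. The groups did not overlap at any of the 6, limma adjusted p was 0.00537 to 0.00822, and 6.72% of all listed sites did not overlap in this direction. The 6 lie on 5 chromosomes.

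**Figure D4:**
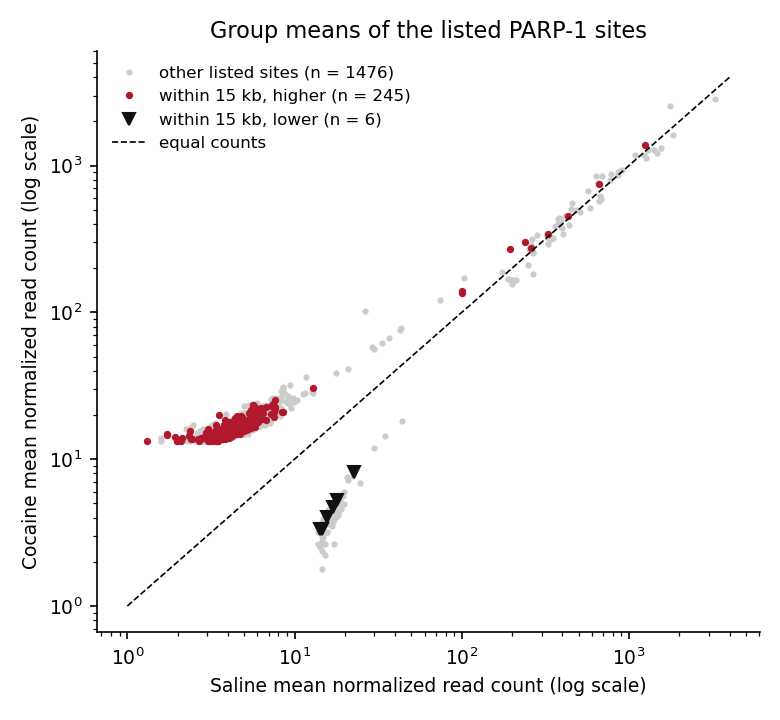
Mean normalized read count after cocaine (vertical axis, log scale, n = 2) against saline (horizontal axis, log scale, n = 3) for each listed site; the dashed line marks equal counts. Sites within 15 kb of a start lie in the same 3 clouds as the other 1476 listed sites: 236 low-count higher sites, 6 lower sites, and 9 sites with mean counts of 100 or more beside the line.

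Each of the 8 sites with the largest rises had a saline replicate with at most 1 read. Mtap1a (RefSeq symbol Map1a), a microtubule-associated protein of neurons, had 13.14 and 13.64 normalized reads after cocaine and 2.12, 1.82 and 0.00 after saline, a change of 2.80 ± 0.54. Its saline reads were thus 2, 2 and 0, and such fitted changes depend on the pseudocount. Csf2rb, the common beta chain of several cytokine receptors, had 14.79 and 14.77 against 3.19, 0.91 and 1.09 (2.63 ± 0.40). D630039A03Rik had 13.14 and 15.91 against 3.19, 0.91 and 1.09 (2.60 ± 0.41). Col16a1, a collagen chain, had 17.25 and 13.64 against 0.00, 2.74 and 4.37 (2.59 ± 0.72). The remaining 4 of the 8 largest were 8430406I07Rik (RefSeq symbol Mgme1, an exonuclease of mitochondrial DNA upkeep, 2.49 ± 0.42), Cyp1a2 (2.49 ± 0.76), Nudt3 (2.43 ± 0.50) and Cyp2j6. Cyp1a2, a liver cytochrome P450, had 13.97 and 13.64 against 0.00, 1.82 and 5.46. In all, 8 sites had a saline replicate with no read, among them Arpc2, Mtap1a, Col16a1, Ahcyl2, Cyp1a2, Spnb2 (RefSeq symbol Sptbn1) and Inca1. At the other end, the low-count sites with the most reads after cocaine were Wdr63 (27.11 and 34.09 against 9.56, 11.85 and 17.47), Mfsd7a, Defb34, Galnt2, Nuak1 and Chaf1a. Wdr63, a dynein-associated protein of cilia, also had the smallest change of the 236, 1.21 ± 0.32.

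Grouped by role, 117 of the 244 genes fell in at least one gene list. The median change of every listed higher site, 1.69, is the level against which the lists below are set, and because nearly every listed site passes, a full count says nothing particular to a list. Among regulators of transcription, the 5 sites of the transcription factor list, which does not hold every such gene, were higher and passed (Foxn1, Foxo6, Sox11, Tbx15 and Tbx4; median 1.78). Foxo6, a forkhead factor, had 13.14 and 14.77 against 4.25, 2.74 and 2.18 at 6.8645 kb into the gene. All 7 sites of 6 zinc finger genes passed as higher, with a median of 2.09. The chromatin and PARP family list, which is not complete and leaves out Chaf1a, had 3 genes, each passing as higher: Hmgb2, Ing1 and Brpf1. Hmgb2, a high mobility group protein that bends DNA, had 13.14 and 13.64 against 2.12, 2.74 and 1.09 with the site 1.0385 kb upstream (2.31 ± 0.32). Ing1, a reader of methylated histones, had 18.07 and 21.59 against 4.25, 4.56 and 7.64. Brpf1, a scaffold of histone acetyltransferase complexes, had 15.61 and 13.64 against 2.12, 5.47 and 4.37. No Parp gene was among the 244.

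The ion channel, receptor and striatal lists held few sites. Of 6 ion channel genes 5 passed as higher and Glra3 as lower. Chrna5, a nicotinic acetylcholine receptor subunit, had 18.07 and 15.91 against 1.06, 7.29 and 3.28 (2.10 ± 0.58), with saline replicates that differed widely. Trpm5, a cation channel of taste cells, had 14.79 and 15.91 against 3.19, 2.74 and 5.46. The list of G protein-coupled receptors and G protein signalling, which leaves out the chemosensory receptors and is not complete, had 3 sites, all passing as higher. Grm2, a presynaptic metabotropic glutamate receptor, had 13.97 and 13.64 against 3.19, 2.74 and 3.28 at 10.9385 kb into the gene (1.87 ± 0.23). Celsr2, an adhesion receptor of planar polarity, had 13.14 and 13.64 against 3.19, 1.82 and 5.46. The striatal and dopamine signalling list, of 37 RefSeq genes, had 2. Ptpn5, the striatum-enriched tyrosine phosphatase STEP, had 20.54 and 13.64 against 5.31, 4.56 and 4.37 (1.63 ± 0.28). Rasd2, the striatal GTPase Rhes, had 13.14 and 15.91 against 3.19, 5.47 and 3.28 (1.66 ± 0.30). Both lie in gene bodies. None of the 33 genes of the activity-regulated list, such as the immediate early genes, had a site here, and none of the 69 genes of the DNA repair list did. The DNA repair list is not complete, and it leaves out Xab2, Ube2n and Fignl1, which had sites here.

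Vesicle genes contributed 6 sites, all passing as higher, with a median of 1.71. Cplx2, a complexin that clamps synaptic vesicle fusion, had 13.97 and 13.64 against 3.19, 1.82 and 6.55 at 2.2885 kb past its start. Vps36, of the endosomal sorting machinery, had 18.07 and 17.04 against 3.19, 4.56 and 5.46. The remaining ones were Doc2b, Rab3d, Snx32 and Tbc1d21. The adhesion, matrix and guidance list had 5 sites (median 1.85), among them Rgmb, a guidance molecule and co-receptor, with 13.97 and 18.18 against 3.19, 5.47 and 2.18. The cytoskeleton list had 4 (median 2.04), among them Mtap1a, Map4k1 and Arpc2. Arpc2, of the actin-branching complex, had 13.14 and 14.77 against 0.00, 4.56 and 5.46 and lost its call with a pseudocount of 0.5 or without saline replicate 2. All 6 solute carrier, pump and ABC transporter sites (median 1.68) and all 6 ubiquitin and protein turnover sites (median 1.65) passed as higher and lay in gene bodies. Examples are Slc37a4, the glucose-6-phosphate transporter, with 19.72 and 25 against 3.19, 9.12 and 6.55, and Rnf43, a ubiquitin ligase, with 13.14 and 15.91 against 4.25, 3.65 and 3.28. The kinase and phosphatase list took 9 sites, all passing as higher (median 1.75), but 3 of them, Mett5d1, Mett10d and Metrnl, came in through their name's first letters and encode no kinase. This list is also not complete, and it leaves out Aurka, Bmp2k and Phkg2, which had sites here.

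The metabolic list had 15 sites in 14 genes, all higher and 12 passing (median 1.72). The 3 that did not pass are high-count sites of Pisd pseudogenes. Nmnat1, named after its values were seen because it makes the nuclear NAD+ that PARP-1 consumes, had 13.14 and 15.91 against 1.06, 7.29 and 3.28 at 2.4495 kb past the start (1.89 ± 0.59, limma adjusted p = 0.0215). Its saline replicates ranged widely and saline replicate 2 came closest to the cocaine values. The cytokine and immune receptor list had 6 sites, all passing as higher (median 1.68): Csf2rb, Cd63, Defb2, Defb34, Il16 and Il7. It is wider than its name, since Cd63 is a tetraspanin and Defb2 and Defb34 are beta-defensins. Chemosensory receptor genes, most of them short genes that lie in clusters, had 9 sites in 8 genes, 8 passing as higher and Vmn2r98 as lower, and 8 of the 9 lay in promoters. In the whole list these 9 are the only genic sites of that family, which has 2135 RefSeq symbols, so none lay beyond 15 kb. RNA processing and translation had 3 sites, of which Dhx34 and Rbm38 passed as higher and Eif4enif1, a high-count site, did not. The marker lists of astrocytes (8 genes), oligodendrocytes (8) and of microglia and endothelium (9) had no site, nor did small RNA genes. Genes given under a model or RIKEN name in the deposited table had 27 sites, all passing as higher (median 1.76). The other 127 genes were in no list.

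Repeated sites in a gene were rare, since 240 of the 244 genes had a single one. Zbtb10, a zinc finger gene, had sites 1.9345 kb and 4.5345 kb past its start. They held 15.61 and 13.64 against 1.06, 4.56 and 5.46, and 13.14 and 14.77 against 4.25, 0.91 and 3.28, a rise of like size (1.89 ± 0.53 and 2.09 ± 0.47). Olfr70 had a second site 4.6775 kb past its start with 13.97 and 13.64 against 3.19, 4.56 and 3.28 (1.67 ± 0.25). The other two genes with more than one site, Sfi1 (5 sites) and Pisd-ps3 (2), belong to a block of very high counts at the start of chromosome 11. With Eif4enif1, also there, and Pisd-ps2 on chromosome 17, they make up the 9 high-count sites (mean of 100 or more). At the site of Sfi1 with the most reads (chr11:3077801-3083200) the values were 1388.32 and 1393.09 after cocaine and 1256.22, 1269.28 and 1221.65 after saline. The groups do not overlap, yet the change is 0.16 ± 0.22 on the log2 scale (limma adjusted p = 0.523). Eif4enif1 had 343.38 and 345.43 against 341.93, 332.82 and 315.51. Over the 9 sites the ratio of group means was 1.04 to 1.39 (median 1.14), the replicates did not overlap at 7, and none passed limma (unadjusted p was 0.05 or more at each), while the exact test gave p under 1e-04 at 4. limma shares its spread over all sites, most of which have low counts, so its SE at these 9 is not their own. Pisd-ps2 and Pisd-ps3 are pseudogene copies of Pisd, so reads may be shared between copies and their values are uncertain.

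The authors' deposited table also gives the enrichment of each site over a background. In the authors' deposited table the higher sites with a mean count under 100 had a median enrichment of 3.12 after cocaine (quartiles 2.20 and 4.83) and 0.88 after saline. By the same columns of the authors' deposited table, genic sites beyond 15 kb had medians of 2.58 and 0.77, and sites outside genes 2.59 and 0.77. An enrichment over 4 after cocaine was given in the authors' deposited table to 34.3% of the sites near starts, 21.7% of the distal genic sites and 18.5% of those outside genes. The cocaine counts themselves were alike, with medians of 15.6, 15.8 and 15.9 normalized reads. Dividing count by length and enrichment gives the implied background, whose medians were 4.69, 5.63 and 5.97 normalized reads per kb. This background is computed from the enrichment itself, so at like counts and lengths it is low where enrichment is high, by construction. Within the sites near starts, promoters and gene bodies had median enrichments of 3.02 and 3.15 in the authors' deposited table. Leading sites by the authors' deposited table were Spag7 (15.95), Rgmb (15.69), Sync (15.64), Zfp161 (RefSeq symbol Zbtb14) and Ttyh1 (14.19 each), and Fcna (13.88), all with 13.14 to 18.18 normalized reads in the cocaine replicates. Snx32 has an infinite value in the authors' deposited table and was left out of the curve of enrichments. What the authors' background was made of is not given in the sources used here, and no test was made between the groups of sites.

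**Figure D5:**
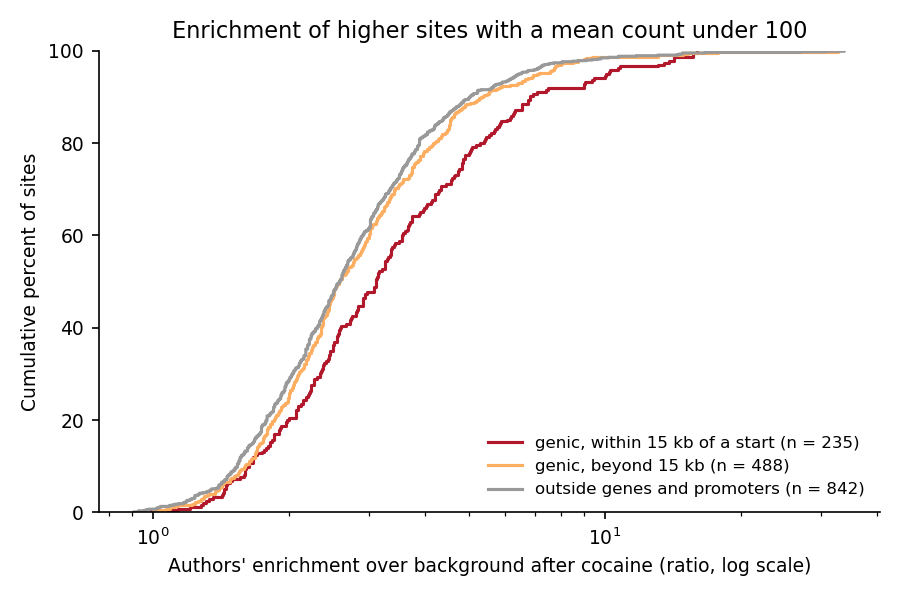
Cumulative percent of sites (vertical axis) against the authors' enrichment over background after cocaine (horizontal axis, ratio, log scale), for higher sites with a mean count under 100. The curve of the 235 sites within 15 kb of a start runs to the right of those of the 488 distal genic sites and the 842 sites outside genes.

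The limit of 15 kb cuts through a continuous run of sites. Just inside it, Nuak1 (14.9145 kb) had 20.54 and 26.13 against 3.19, 8.21 and 5.46, and Wdfy1 (14.9925 kb) had 18.07 and 15.91 against 6.37, 3.65 and 6.55. Just outside it, Col22a1 (15.0555 kb) had 13.97 and 17.04 against 6.37, 4.56 and 2.18, and 2010015L04Rik (15.1025 kb) had 18.07 and 17.04 against 6.37, 2.74 and 5.46. Of the 244 genes, 7 also held a listed site beyond 15 kb: Sfi1, Epb4.1l4a, Thrb, Mad1l1, Ctnna3, Pld5 and Ldb3. Their 22 distal sites were all higher after cocaine. The sites near starts were otherwise isolated, with a median of 349 kb to the next listed site. Only 12 had another within 10 kb, and of these 4 had a mean count under 100.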

How the data were processed

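PARP-1 ChIP-seq libraries were sequenced by the submitters, whose processing notes name the mm9 build and CASAVA 1.8.2; the aligner, duplicate handling and listing threshold are not given in the sources used here. Per the file headers, the deposited table holds normalized read counts of each replicate, group averages (a signal), enrichment over a background (a ratio), the authors' log2 fold change, and the authors' p-values and adjusted p-values. Control was taken as saline from the series' design text. Within each library 100.0% of 1727 values could be written as whole reads with a tolerance of 0.1 read; 1 read was worth 0.821 and 1.14 (cocaine) and 1.06, 0.912 and 1.09 (saline). Taking these factors as depth, the shallowest library had 72.3% of the deepest; total depth is unknown. The libraries held 9486 and 7133 cocaine reads and 4430, 5122 and 4348 saline reads in the 251 sites.

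In R 4.3.3, limma 3.58.1 was fitted to log2(value + 1) over all 1727 sites, unpaired, and was tested on simulated data. The added 1 shrinks fold changes at low counts. The sites were listed because these same libraries differed, which can overstate the changes, and its size was not tested. The exact two-sided binomial test compared a site's cocaine share of reads with the cocaine share of depth, 41.5%, and measures counting error only, as reads were not tagged per molecule. Intervals are at 95%. The labels call the replicates both biological and sequencing replicates, so p-values measure the spread between these pools, which may be technical. Named sites were the 12 nearest a start, the 8 largest rises and all falls, the 6 highest under and over a mean count of 100, genes with more than 1 site, and up to 3 per list by the authors' adjusted p. Sites, lists and rules were chosen with earlier results of these data known. All 251 sites matched RefSeq genes (GRCm38.p6), 248 by accession, and 36 genes have another symbol there. Exon, intron and UTR were not assigned. A few named sites are not reported here. Alternatives are given in the closing section.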

Additional observations from a re-analysis of the deposited data

How the results depend on the processing

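All 76 named sites kept their direction under the pseudocounts, filters, scaling and left-out replicates in which they were fitted. A pseudocount of 0.5 gave median log2 changes of 1.86 (higher sites) and -1.82 (lower sites), and one of 3 gave 1.39 and -1.40, since a larger pseudocount shrinks changes at low counts. Leaving out each replicate in turn, limma passed 0 to 235 sites as higher and 0 to 6 as lower. The 0 came without cocaine replicate 2, when the smallest adjusted p was 0.0561 and 67 named sites lost their call. A single cocaine replicate then stood for its group and was assumed to vary as the saline replicates do. Without cocaine replicate 1, 27 named sites lost their call. Without saline replicate 2, 4 did (Arpc2, Cd63, Cyp1a2 and Defb34), and with a pseudocount of 0.5, 2 did (Arpc2 and Lpar5). Counting both directions, limma passed 241, 230 and 239 of the 251 sites without saline replicates 1, 2 and 3. Over all 1727 listed sites it passed 1651, 1591 and 1640, so the whole list changed in the same way. Without either cocaine replicate, far fewer sites passed over the whole list too. Within 5000 bp of a start 111 sites passed as higher, because only 121 sites lie there. Scaling on the high-count sites (mean of 100 or more) and the exact test, both chosen after seeing the data, gave 233 and 196 higher sites and 6 lower sites each. Over all 1727 listed sites and both directions, they gave 1644 and 1355. The planned edgeR and DESeq2 tests, and TMM and DESeq2 scaling, were not run. The deposited values are normalized, although whole reads could be recovered from them. No paired analysis was possible because the labels give no replicate numbers. Depth limits all low-count sites: a saline replicate held a median of 4 to 5 reads.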
